A study of Homo sapiens and Mus musculus with 18 samples.

Results

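J3D cells that had received protons were compared with sham-handled J3D cells, using 3 libraries a group, which are 6 of the 18 samples of the study. The groups were taken from the sample labels and no measured value was used to choose them. J3D is a mouse line that the labels give the tumour type Burkitt lymphoma, and the other line of the study is the human line BL41. Proton cells received 5 Gy from a beam scanned across them at mid-depth of the spread-out Bragg peak, the depth range over which a proton beam of mixed energies is made to deposit an even dose. The beam energies ran from 129.3 to 148.2 MeV/u, and the median linear energy transfer, the energy left per length of track, was 3.5 keV/µm (2.9 to 7.9 keV/µm). Sham cells received no dose and stood at room temperature outside the incubator during the exposures, and a further group of 3 libraries had received X-rays at the same dose, made by a 6 MV linac. All 3 groups were the same line at passage 5 to 10, grown in RPMI medium with 10% serum and resuspended 6 h before the exposure. RNA was extracted 12 h afterwards. The labels do not say that the libraries of a group came from separate cultures, so the p-values measure the spread between these libraries, which may be technical.

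Ionising radiation breaks DNA. Cells with a working p53 protein answer by transcribing p53 targets, which halt the cell cycle at its checkpoints, repair the damage or start apoptosis through BCL2 family proteins. Burkitt lymphoma is driven by the transcription factor MYC, which raises ribosome production, nucleotide synthesis and entry into S phase. Protons deposit their energy more densely along the track than X-rays do, and the study set both kinds of radiation at the same dose beside sham handling.

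The deposited table has 12264 rows, and each value is a logarithm, read here as log2, relative to the mean of the libraries that carry the same replicate number. A value of 0 is therefore the average of that number and not an absence of RNA, and the table holds no absolute level and no sequencing depth. A difference between 2 libraries of 1 number does not depend on that centring. The 3 libraries of number 1 had the widest spread over all rows, with interquartile ranges of 0.342 in sham, 0.395 after X-rays and 0.371 after protons, while the other 6 lay between 0.140 and 0.238. In number 1 the proton library stood apart from both others. The interquartile range of the proton minus sham difference was 0.686 in number 1, 0.304 in number 2 and 0.261 in number 3, and that of proton minus X-ray was 0.741, 0.238 and 0.335. The X-ray minus sham difference had no such excess in number 1, at 0.261 against 0.339 and 0.342. A proton minus sham difference of more than 1 in either direction was found for 861 rows in number 1 (7.02%), 179 in number 2 (1.46%) and 187 in number 3 (1.52%). The medians of many gene lists are therefore given by number, and a fitted difference is an average to which number 1 often contributes the widest value.

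**Figure D1:**
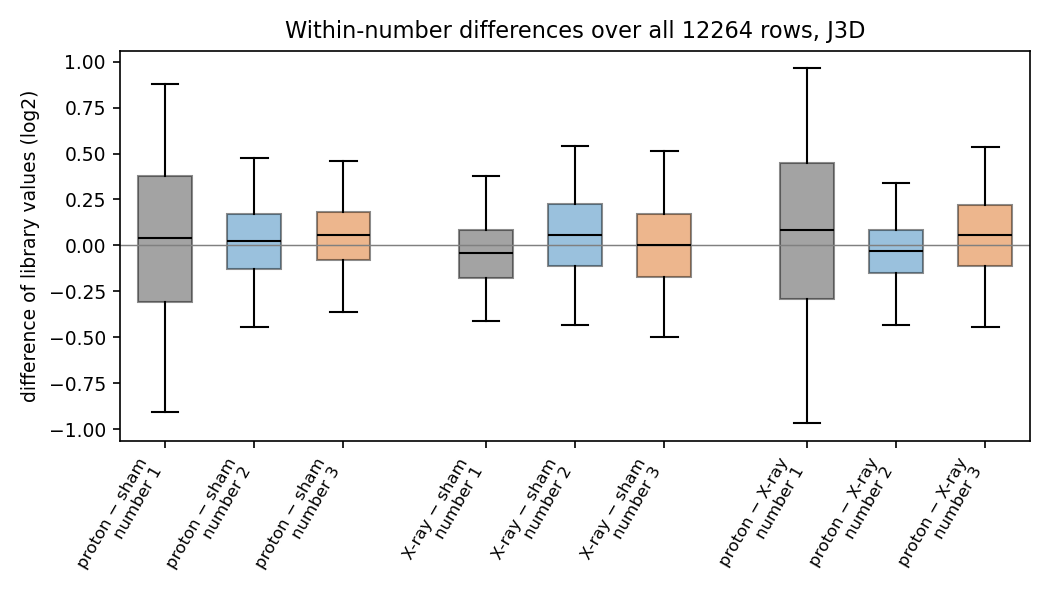
Differences between libraries of the same replicate number over all 12264 rows, on the log2 scale; boxes span the quartiles, lines mark medians and whiskers the 5th to 95th percentile. The boxes for proton minus sham and proton minus X-ray of number 1 are the widest, while X-ray minus sham of number 1 is no wider than in numbers 2 and 3.

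The labelled cell type was checked against genes that mark B cells. Cd22, an inhibitory receptor of B cells, has a row, and Cd79a, Cd79b, Ms4a1, Pax5, Ebf1 and Blnk have no row in the table analysed here. Of a longer list of 47 B-cell identity genes 6 have a row, as do 4 of 26 T-cell and NK-cell markers, 4 of 24 myeloid markers and 4 of 18 stromal, endothelial and epithelial markers. Of 59 erythroid and megakaryocyte genes 41 have a row, among them Gata1, the transcription factor that defines both lineages. Since levels cannot be read from centred values, the line is called J3D throughout.

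The comparison asked which transcripts differed 12 h after protons. No row passed an adjusted p of 0.05 (limma with Benjamini-Hochberg adjustment over 12264 rows, 0.0%), and the lowest limma adjusted p was 0.206. Without adjustment 2425 rows (19.8%) had a p under 0.05 in the same fit, 1357 of them higher after protons (11.1% of rows) and 1068 lower (8.71%). A fit with the replicate number as a block also called 0 rows, with 1134 (9.25%) under 0.05 unadjusted. The call depended on how libraries were weighted. When limma estimated a weight for each library, 312 rows passed (2.54%), 203 higher (1.66%) and 109 lower (0.889%). With the block and the weights together 1 row passed, in the lower direction (0.00815%). A direction can be described without a test. The proton library was above the sham library of its own number in all 3 numbers for 3696 rows (30.1%), and below it in all 3 for 2232 rows (18.2%). These shares moved with the scaling, to 2935 rows higher and 2938 lower after recentring each library on its trimmed mean and to 2821 and 2833 after quantile normalization. The median of all rows was 0.05 higher after protons as deposited, and this too depended on the scaling. It was 0.007 after trimmed-mean recentring, 0.008 after quantile normalization and 0.045 at an equal interquartile range. Across genes, the proton minus sham differences of numbers 1 and 2 had a Pearson correlation of 0.350 over 12264 rows, those of numbers 1 and 3 0.252 and those of numbers 2 and 3 0.225. The counts for each group of genes below are read against 30.1% and 18.2%, the shares of all rows, and against 41.1% higher and 25.0% lower when numbers 2 and 3 are taken alone.

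Hist1h2ag, which encodes a core histone H2A made during S phase, had the smallest p of all rows. Its value was 0.36, 0.56 and 0.69 in the sham libraries of numbers 1, 2 and 3 and −0.20, −0.23 and −0.49 after protons, so the groups did not overlap. The fitted difference was −0.84 ± 0.12 (SE, n = 3 libraries a group), with a limma adjusted p of 0.206. The X-ray libraries, at −0.22, −0.11 and −0.18, were also below every sham library. Ctnnb1, which encodes the adhesion and Wnt-pathway protein beta-catenin, was at 0.24, 0.41 and 0.30 in sham and −0.25, −0.24 and −0.17 after protons. Its difference was −0.54 ± 0.09, with a limma adjusted p of 0.247, and lay between −0.65 and −0.48 in the 3 numbers. St6gal1, a sialyltransferase of the Golgi, was at 0.64, 0.23 and 0.29 in sham and −0.65, −0.22 and −0.41 after protons, a difference of −0.81 ± 0.17. Arnt, the dimer partner of the hypoxia-inducible factors, was at 0.30, 0.19 and 0.17 in sham and −0.31, −0.14 and −0.09 after protons. The other lower genes with the smallest p were Mybphl (−0.62 ± 0.11), Ccdc19 (−0.43 ± 0.08), Klc2, a kinesin light chain (−0.49 ± 0.10), Tmem241 (−0.54 ± 0.12), Gp1ba, a platelet adhesion receptor subunit (−0.61 ± 0.14), and Podxl2 (−0.57 ± 0.14). In none of these 10 genes did a proton library overlap a sham library, which the choice by smallest p favours. The share of all rows without such overlap was not counted, so separate groups in a gene named here or below have no background.

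Among the genes that were higher, Rpl30-ps8 had the smallest p, at −0.56, −0.25 and −0.51 in sham and 0.75, 0.74 and 0.87 after protons. It is a processed pseudogene, as is Hspe1-ps3 (−0.34, 0.07 and −0.30 in sham, 0.75, 0.71 and 0.89 after protons), and reads of the parent genes Rpl30 and Hspe1 may be counted there, so both are uncertain. Both also have libraries tied at the lowest value of a number. Pseudogene classes make up 7.12% of the rows and 13 of the 100 rows with the smallest p. Trpm5, a calcium-gated cation channel, was at −0.27, −0.53 and −0.53 in sham and 0.27, 0.30 and 0.27 after protons, a difference of 0.72 ± 0.13. Sccpdh, named for its likeness to a dehydrogenase of lysine breakdown, was at −0.68, −0.41 and −0.37 in sham and 0.26, 0.23 and 0.41 after protons, a difference of 0.79 ± 0.15. Naa30, the catalytic subunit of an N-terminal acetyltransferase, was higher by 0.53, 0.52 and 0.59 in the 3 numbers. Svs5 (0.88 ± 0.17), Rsc1a1 (0.84 ± 0.18), Fam132a (0.84 ± 0.18), BC002059 (0.73 ± 0.16) and Fam129b (0.62 ± 0.12) complete the 10. The 143 genes named by rule had limma adjusted p from 0.206 to 0.956, and none passed the threshold. The differences given below for other genes are differences of group means, with their SE, that did not pass. Every SE and interval comes from the fit without the block and is too narrow, because that fit does not count the centring.

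The p53 targets of cell-cycle arrest did not move together. Of 25 genes 19 have a row, and 8 were higher and 5 lower in all 3 numbers (42.1% and 26.3%), with a median difference of 0.05, the median of all rows. Ccng1, a cyclin that is among the steadiest p53 targets in the mouse, was at −0.44, −0.26 and −0.27 in sham and 0.28, 0.18 and 0.01 after protons. The groups did not overlap, and the difference was 0.48 ± 0.14 (95% interval 0.18 to 0.78). Plk2, a kinase induced by p53, was at −0.42, −0.11 and −0.51 in sham and 0.10, 0.14 and 0.17 after protons, a difference of 0.48 ± 0.11. Ei24, a p53-induced protein of the endoplasmic reticulum, was higher by 0.34 ± 0.11. Cdkn1a, which encodes the arrest protein p21, was at 0.15, 0.20 and −0.04 in sham and −0.53, −0.23 and 0.03 after protons. The groups overlapped, and the difference was −0.35 ± 0.19 (95% interval −0.76 to 0.06). Mdm2, the ubiquitin ligase that holds p53 down, was at −0.13, 0.04 and 0.01 in sham and 0.14, 0.03 and 0.17 after protons, with a difference of 0.14 ± 0.08 (95% interval −0.04 to 0.33). Phlda3, an inhibitor of AKT, differed by 0.05 ± 0.08 (95% interval −0.11 to 0.22), and Plk3, a stress kinase, by −0.30 ± 0.12. Trp53 itself, at 0.16, 0.22 and 0.16 in sham and −0.24, −0.05 and 0.05 after protons, had a difference of −0.26 ± 0.12 (95% interval −0.53 to 0.00). Ccng2, an unusual cyclin linked to arrest, had the list's largest difference and was named after its values were seen. It was at 1.75, 0.57 and 0.60 in sham and −1.47, −0.49 and −0.11 after protons, so its difference of −1.66 ± 0.70 came mostly from number 1.

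Among the apoptotic p53 targets the direction differed between number 1 and the other two. Of 22 genes 14 have a row, with 4 higher and 2 lower in all 3 numbers (28.6% and 14.3%) and a median of 0.01. By number the median was −0.10, 0.10 and 0.22, and without number 1 it was 0.18. In numbers 2 and 3 alone 9 of the 14 were higher and 3 lower (64.3% and 21.4%, against 41.1% and 25.0% of all rows). Eda2r, a death-domain receptor, was at −0.09, −0.13 and −0.13 in sham and 0.08, 0.13 and 0.09 after protons, and Bid, which links death receptors to mitochondria, was higher by 0.32 ± 0.12. Bbc3, which encodes the BH3-only protein PUMA, was lower in every number. It was at 0.73, 0.66 and 0.52 in sham and −0.91, −0.25 and 0.04 after protons, a difference of −1.01 ± 0.39 (95% interval −1.87 to −0.14), while X-ray libraries were at 1.05, −0.36 and −0.17. Bax, the pore-forming effector, differed by 0.01 ± 0.10 (95% interval −0.20 to 0.22), with a sign that depended on the fit. Ddb2, a damage sensor of nucleotide excision repair, differed by −0.35 ± 0.14 with overlapping groups. Pmaip1, which encodes NOXA, and the death receptor gene Fas have no row in the table analysed here. In the BCL2 family and death receptor list, which shares Bid and Bbc3, 29 of 34 genes have a row. Of these 7 were higher and 6 lower in all 3 numbers (24.1% and 20.7%). The median was 0.07, and −0.04, −0.07 and 0.07 by number. Casp6, an executioner caspase, was at −0.33, −0.42 and −0.13 in sham and 0.03, 0.18 and 0.22 after protons. Bik, another BH3-only gene, was at −0.67, −0.41 and −0.73 in sham and 0.47, 0.40 and −0.13 after protons. Bcl2l2, which encodes the survival protein BCL-w, differed by −0.46 ± 0.16, with groups that overlapped in number 3.

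**Figure D2:**
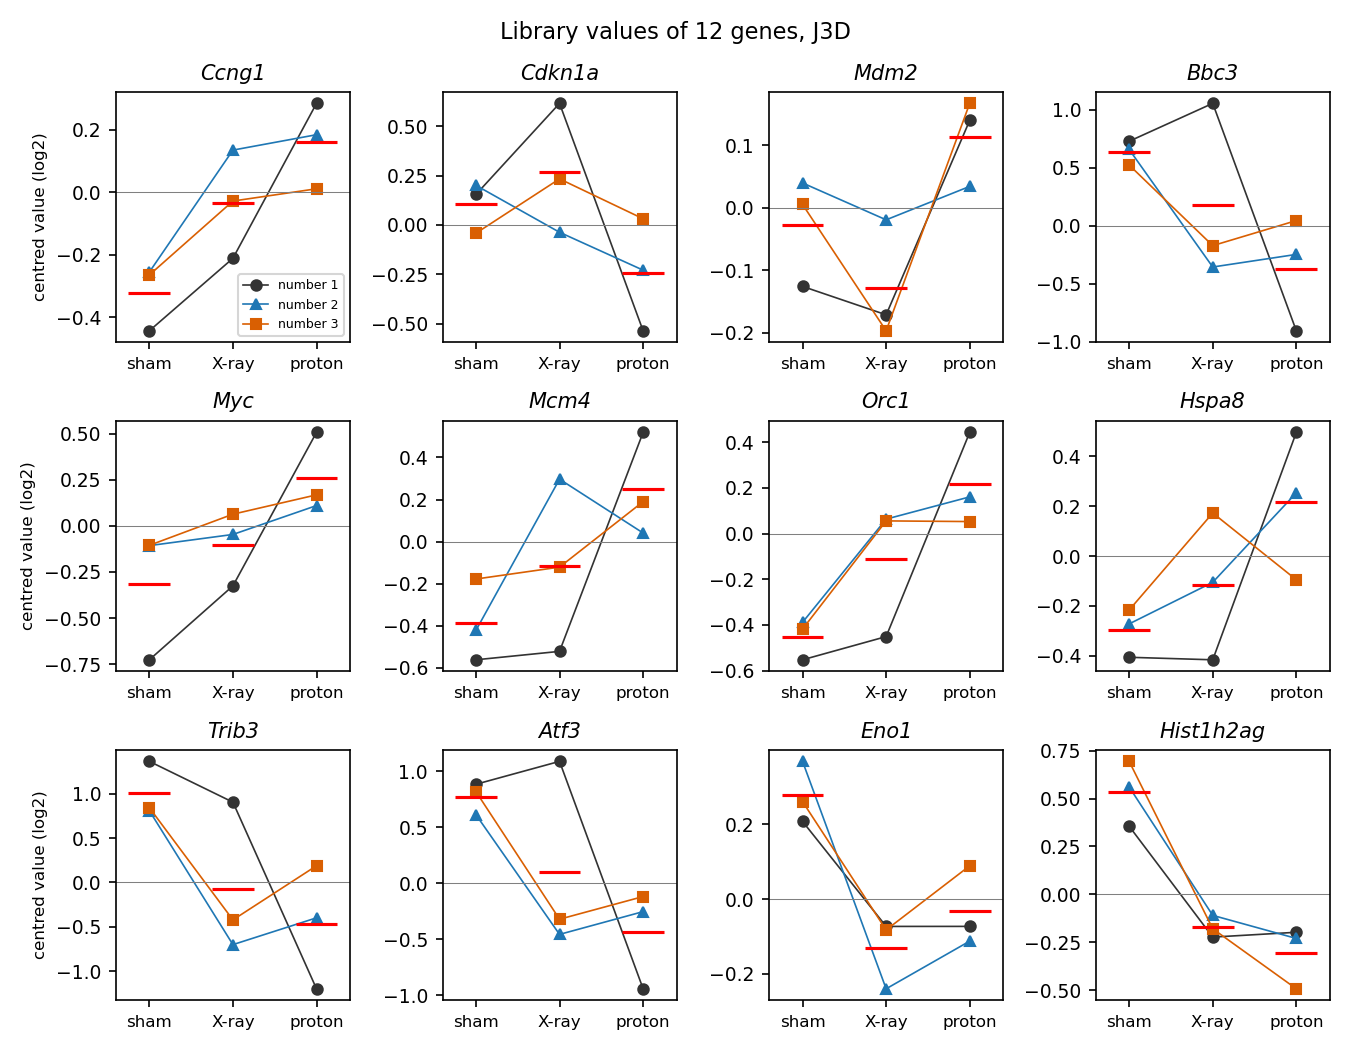
Deposited values of 12 genes in the 9 J3D libraries; the vertical axis is the centred log2 value with a scale of its own in each panel, lines join libraries of 1 replicate number and red bars are group means. Ccng1 and Mcm4 are above sham after protons in every number, Cdkn1a overlaps, and Trib3, Atf3 and Hist1h2ag are below sham in every number.

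Genes of the G1/S transition and DNA replication were higher after protons more often than rows in general. All 63 genes of the list have a row, and 46 were higher and 2 lower in all 3 numbers (73.0% and 3.17%, against 30.1% and 18.2% of all rows). The median difference was 0.23, and by number it was 0.37, 0.21 and 0.11. With numbers 2 and 3 alone 46 were higher and 5 lower (73.0% and 7.94%, against 41.1% and 25.0%), and under trimmed-mean recentring the counts in all 3 numbers were 38 and 2. The list's median for X-rays minus sham, a comparison that uses the same sham libraries, was 0.05. Orc1, the largest subunit of the origin recognition complex, was at −0.55, −0.39 and −0.42 in sham and 0.44, 0.16 and 0.05 after protons, a difference of 0.67 ± 0.20. Mcm4, part of the replicative helicase, was at −0.56, −0.42 and −0.18 in sham and 0.52, 0.04 and 0.19 after protons, a difference of 0.64 ± 0.22. In both genes every proton library was above every sham library. E2f1, the transcription factor that turns on replication genes, was at −0.25, −0.26 and −0.18 in sham and 0.13, 0.11 and 0.08 after protons. Gins2, part of the same helicase, was at −0.23, −0.32 and −0.11 in sham and 0.17, 0.13 and 0.05 after protons. Pcna, the sliding clamp of DNA polymerase and also a p53 target, was higher by 0.61, 0.24 and 0.04 in the 3 numbers. Not all members shared the direction. Ccnd3, a D-type cyclin named after its values were seen, differed by −0.66, 1.61 and −1.40.

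**Figure D3:**
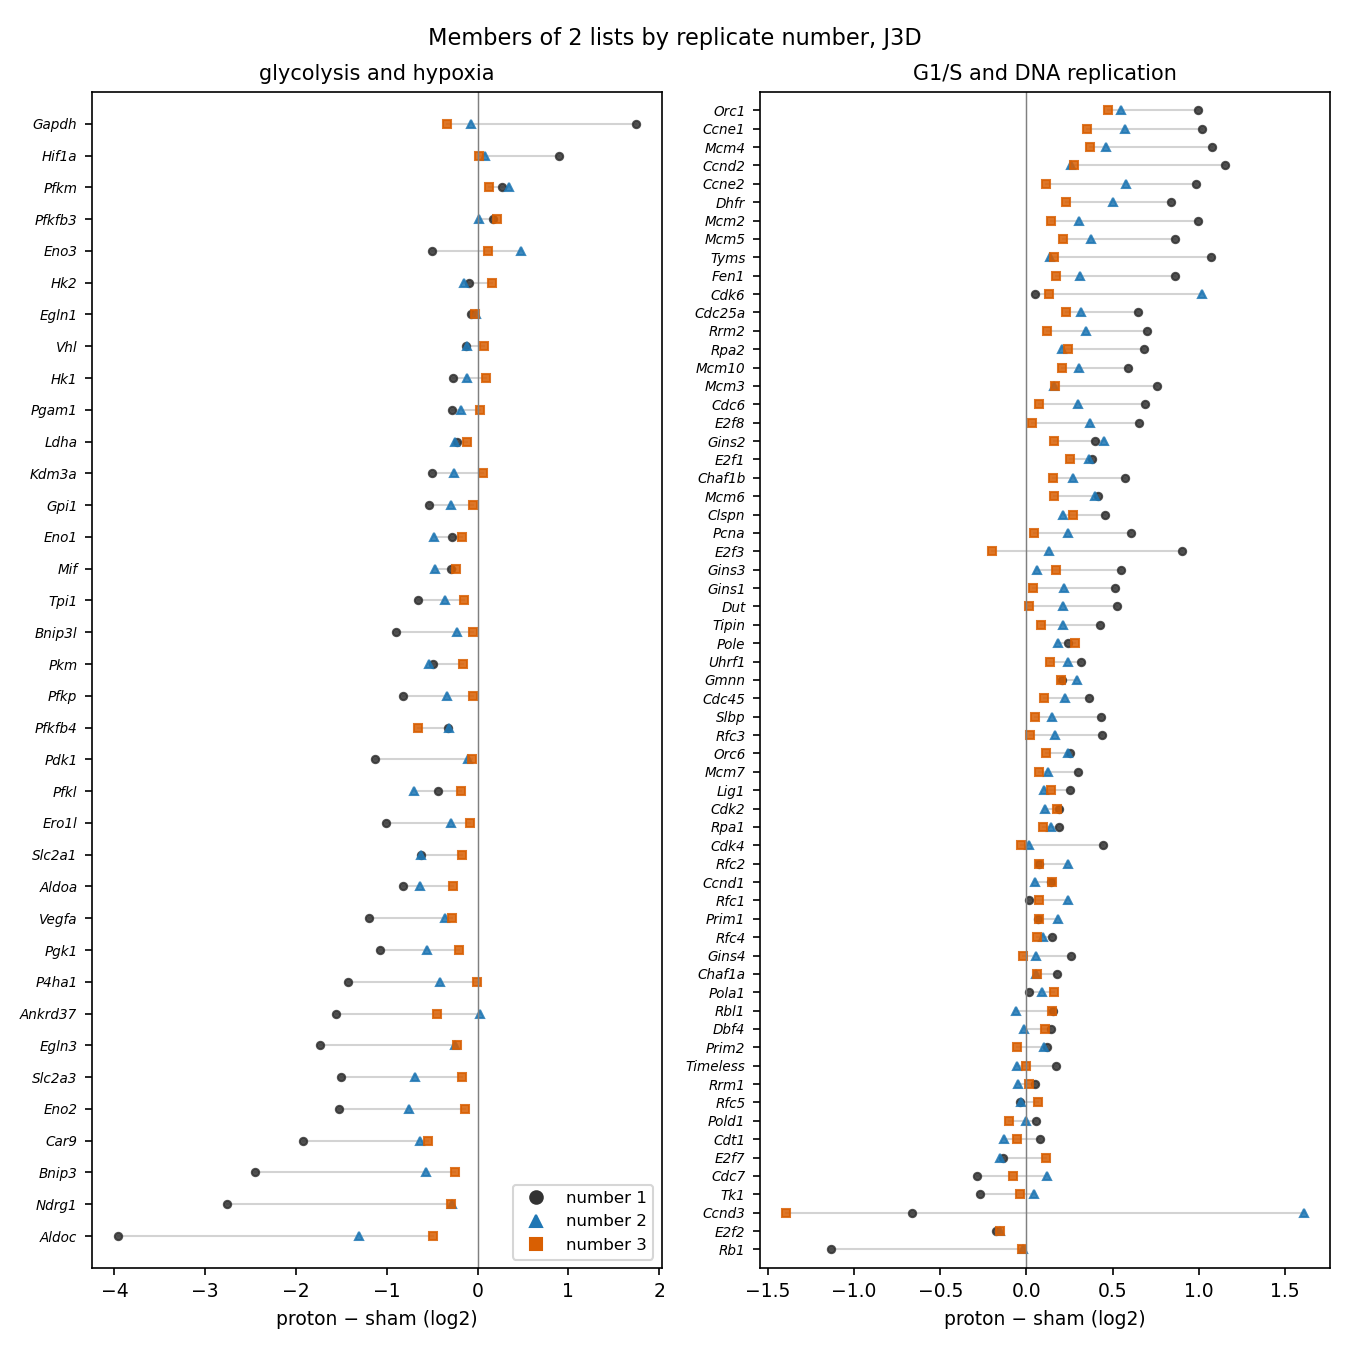
Proton minus sham difference (log2) of each measured gene of 2 lists, with 1 symbol per replicate number and genes ordered by the fitted difference. Most of the 36 glycolysis and hypoxia genes lie below 0 in all 3 numbers and most of the 63 G1/S and replication genes above it, and number 1 usually lies farthest from 0.

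All 50 genes of mitosis and G2/M have a row, with 6 higher and 4 lower in all 3 numbers (12.0% and 8.0%) and a median of 0.01. By number the median was 0.03, −0.07 and 0.07. The balance depended on the scaling, with 5 higher and 11 lower and a median of −0.03 after trimmed-mean recentring, 4 and 11 and −0.04 after quantile normalization, and a median of −0.01 without number 1. Ccnb1, the cyclin of mitotic entry, was at −0.10, 0.09 and 0.00 in sham and −0.01, 0.00 and 0.03 after protons, and Plk1, a mitotic kinase, differed by 0.62, −0.36 and 0.06 in the 3 numbers. Top2a, which untangles chromosomes, and Ect2, which starts cytokinesis, each differed by −0.24, and in both the groups overlapped. Cdc25c, the phosphatase that releases cells into mitosis, was at 0.08, 0.22 and 0.01 in sham and −0.05, −0.16 and −0.12 after protons.

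Replication-dependent histone genes, which are transcribed in S phase, had the opposite sign to the replication list. Of 53 clustered histone genes 15 have a row, 0 were higher and 6 lower in all 3 numbers (40.0%), and the median was −0.22. By number the median was −0.07, −0.39 and −0.39, so here number 1 had the smallest difference. In numbers 2 and 3 alone 10 of 15 were lower (66.7%) and 0 higher. Besides Hist1h2ag, described above, Hist1h1e, a linker histone, was at 0.23, 0.33 and 0.60 in sham and 0.17, −0.26 and −0.12 after protons, and −0.09, −0.06 and −0.21 after X-rays. Hist1h2bh was at 0.23, 0.44 and 0.84 in sham and 0.23, −0.33 and −0.32 after protons, with no difference in number 1. Slbp, which binds the stem-loop that ends these messenger RNAs, was higher by 0.43, 0.15 and 0.05. Most of these messages lack a poly(A) tail and their genes are near-identical, and neither the RNA selection nor the treatment of shared reads is given in the sources used here, so single histone values are uncertain. H2afx, whose product is phosphorylated at DNA breaks, was at 0.46, 0.79 and 0.30 in sham and −0.33, −0.18 and −0.21 after protons, a difference of −0.76 ± 0.24.

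In the list of DNA repair and damage signalling all 58 genes have a row, and 25 were higher and 7 lower in all 3 numbers (43.1% and 12.1%), with a median of 0.06. The medians by number were 0.10, 0.09 and 0.11. Ung, which removes uracil from DNA, was at −0.73, −0.46 and −0.09 in sham and 0.45, 0.16 and 0.14 after protons, a difference of 0.68 ± 0.22. Exo1, an exonuclease of mismatch repair and break resection, was higher by 0.99, 0.36 and 0.26, and Hus1, part of a checkpoint clamp, by 0.51, 0.05 and 0.31.

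MYC and the genes of ribosome assembly were higher after protons, mostly in number 1. Myc was at −0.73, −0.11 and −0.11 in sham and 0.51, 0.11 and 0.17 after protons. The groups did not overlap, the difference was 0.57 ± 0.19 (95% interval 0.16 to 0.99), and by number it was 1.23, 0.22 and 0.27. Max, the dimer partner of MYC, was higher by 0.94, 0.20 and 0.15, and Mxd3, a partner of MAX that opposes MYC, was at 0.42, 0.25 and 0.06 in sham and −0.34, −0.13 and −0.21 after protons. Of 47 genes of the MYC network and ribosome biogenesis 45 have a row, and 29 were higher and 3 lower in all 3 numbers (64.4% and 6.67%). The median was 0.30, and 0.61, 0.10 and 0.11 by number. Rrp9, which guides the processing of ribosomal RNA, was at −0.35, −0.13 and 0.04 in sham and 0.34, 0.14 and 0.14 after protons. Of 30 host genes of small nucleolar RNAs and nuclear noncoding RNAs 6 have a row, and 4 were higher and 1 lower in all 3 numbers. Snhg3 was higher by 1.64, 0.49 and 0.26, Dancr by 1.34, 0.29 and 0.28, and Tug1 by 0.90, 0.12 and 0.15. Gas5, whose transcript is degraded when it is translated, differed by −0.71, −0.07 and −0.11.

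The proteins of the ribosome itself went the other way. Of 78 cytoplasmic ribosomal protein genes 76 have a row, and 4 were higher and 54 lower in all 3 numbers (5.26% and 71.1%, against 30.1% and 18.2% of all rows). The median was −0.21, and −0.38, −0.13 and −0.13 by number, while for X-rays minus sham it was −0.10. With numbers 2 and 3 alone 60 were lower (78.9%) and 7 higher. Rps16, of the small subunit, was at 0.35, 0.32 and 0.16 in sham and −0.34, −0.11 and −0.15 after protons, a difference of −0.48 ± 0.16. Rpl13 (−0.45 ± 0.16) and Rpl36 (−0.46 ± 0.17), of the large subunit, had no overlap between groups either. Rpl29, also of the large subunit, was an exception at −0.62, −0.13 and 0.09 in sham and 0.52, 0.15 and 0.19 after protons. Many ribosomal protein genes have processed pseudogenes, and reads may be split between them.

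Proteasome genes were higher in small steps. Of 36 genes 34 have a row, and 24 were higher and 1 lower in all 3 numbers (70.6% and 2.94%), with a median of 0.22, and 0.47, 0.09 and 0.09 by number. Psmd7, of the regulatory particle, was at −0.45, −0.22 and −0.22 in sham and 0.42, 0.12 and 0.05 after protons, a difference of 0.49 ± 0.17. Psmb10, a catalytic subunit of the immunoproteasome, was at −0.59, −0.28 and 0.01 in sham and 0.50, 0.19 and 0.16 after protons. The 22 heat-shock chaperone genes all have a row, with 12 higher and 3 lower in all 3 numbers (54.5% and 13.6%) and medians of 0.37, 0.09 and 0.01 by number. Hspa8, the constitutive HSP70, was at −0.41, −0.27 and −0.22 in sham and 0.50, 0.25 and −0.10 after protons, and Hsph1, its exchange factor, was higher by 1.43, 0.63 and 0.21. All 56 splicing genes have a row, and 22 were higher and 2 lower in all 3 numbers (39.3% and 3.57%). Their median was 0.35 in number 1 but −0.01 and 0.06 in numbers 2 and 3, and with those numbers alone 23 were higher and 12 lower (41.1% and 21.4%), close to the shares of all rows. Prpf4, a protein of the U4/U6 particle, was higher by 0.44 ± 0.16.

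**Figure D4:**
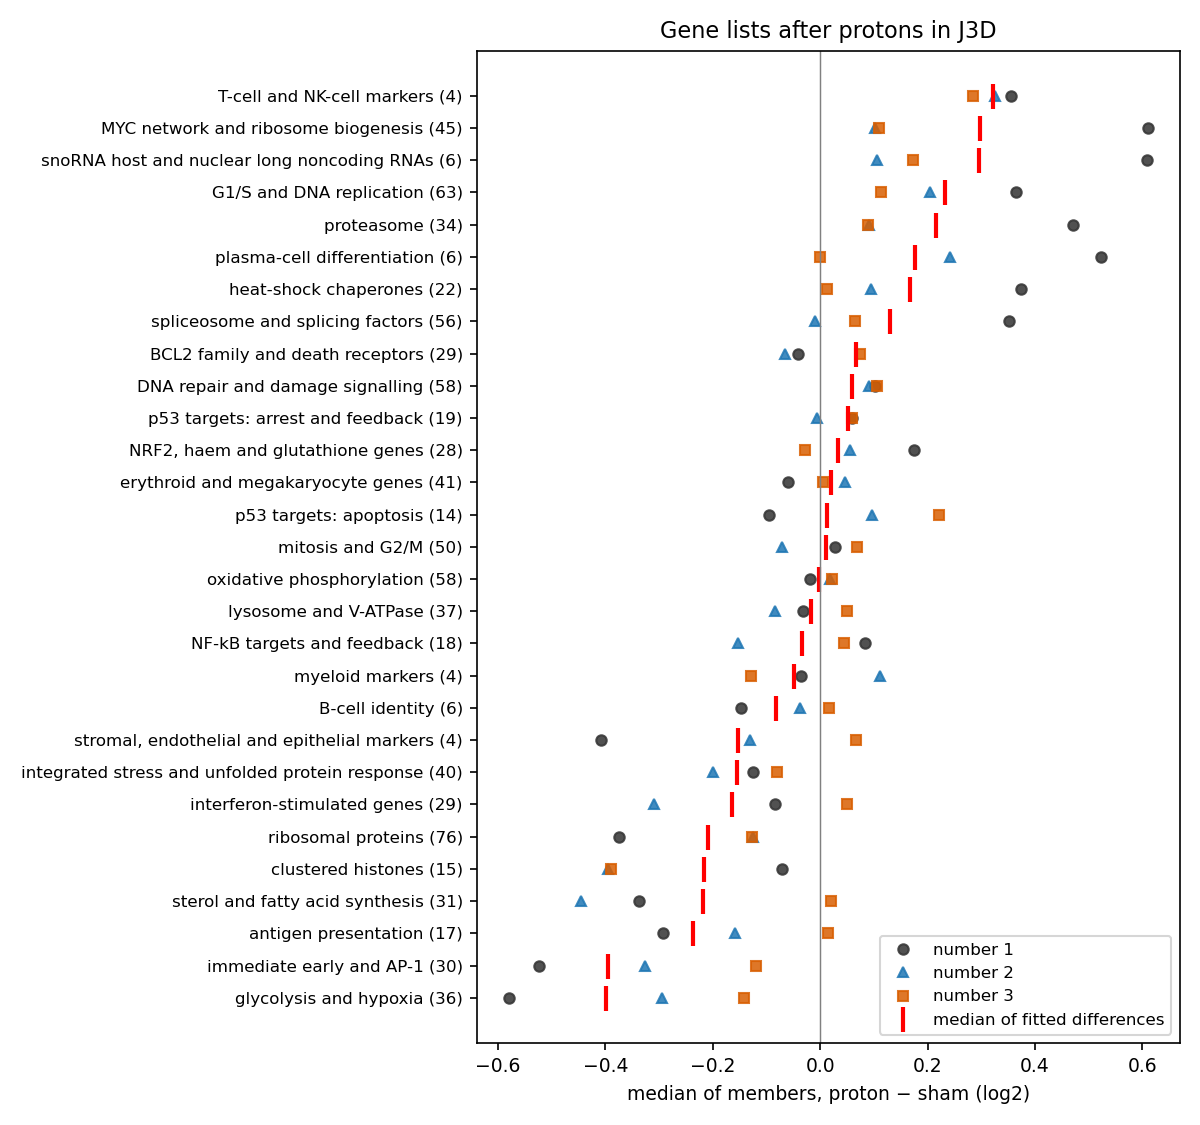
Median proton minus sham difference (log2) over the measured genes of 29 lists, with the number of genes in brackets, 1 symbol per replicate number and a red bar for the median of the fitted differences. The G1/S, proteasome and ribosome biogenesis lists lie above 0 in all 3 numbers and the ribosomal protein, immediate early and glycolysis lists below 0 in all 3.

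Glycolysis and hypoxia genes were lower after protons in most cases. Of 38 genes 36 have a row, and 3 were higher and 25 lower in all 3 numbers (8.33% and 69.4%, against 30.1% and 18.2% of all rows). The median was −0.40, and −0.58, −0.29 and −0.14 by number, and for X-rays minus sham it was −0.28. With numbers 2 and 3 alone 26 were lower (72.2%) and 4 higher. Eno1, the enolase of glycolysis, was at 0.21, 0.37 and 0.26 in sham and −0.07, −0.11 and 0.09 after protons, and −0.07, −0.24 and −0.08 after X-rays. Every irradiated library was below every sham library. Slc2a3, a glucose transporter, was at 0.81, 0.38 and 0.23 in sham and −0.70, −0.31 and 0.06 after protons, a difference of −0.79 ± 0.28. Car9, a carbonic anhydrase induced by hypoxia, was at 0.86, 0.37 and 0.53 in sham and −1.06, −0.27 and −0.01 after protons, a difference of −1.04 ± 0.36. Eno2, a second enolase, differed by −0.80 ± 0.28. The hypoxia-induced genes Aldoc, Ndrg1 and Bnip3, named after their values were seen, show the weight of number 1. Aldoc differed by −3.96, −1.30 and −0.49, Ndrg1 by −2.76, −0.28 and −0.29, and Bnip3 by −2.45, −0.57 and −0.25. Gapdh, also named after its values were seen, changed sign, with 1.74 in number 1 and −0.08 and −0.34 in numbers 2 and 3.

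Sterol and fatty acid synthesis genes had a negative median in numbers 1 and 2 and not in number 3. Of 34 genes 31 have a row, with 1 higher and 12 lower in all 3 numbers (3.23% and 38.7%) and medians of −0.34, −0.45 and 0.02 by number. For X-rays minus sham the list's median was −0.23, against 0.00 for all rows. In that comparison 22 of the 31 were lower in all 3 numbers, a share that was not counted over all rows. Mvd, which makes isopentenyl diphosphate, was at 0.53, 0.51 and 0.28 in sham and −0.44, −0.30 and 0.07 after protons, and 0.30, −0.12 and −0.09 after X-rays. Srebf2, the transcription factor of sterol synthesis, was at 0.49, 0.37 and 0.25 in sham and −0.55, −0.22 and 0.09 after protons. In both genes the proton libraries were below all sham libraries.

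The list of the integrated stress and unfolded protein responses held genes of both directions. Of 41 genes 40 have a row, and 9 were higher and 17 lower in all 3 numbers (22.5% and 42.5%). The 4 members with the smallest p were lower in all 3 numbers. Trib3, a pseudokinase induced by ATF4, the factor that answers amino acid shortage, was at 1.36, 0.81 and 0.84 in sham and −1.20, −0.40 and 0.19 after protons, and 0.90, −0.70 and −0.42 after X-rays. The proton minus sham difference was −1.47 ± 0.47. Cebpb, a transcription factor, differed by −1.02 ± 0.34, Cebpg, its relative, by −0.46 ± 0.15, and Aldh18a1, which makes the precursor of proline, by −0.67 ± 0.22. Atf3, a stress-induced transcription factor named after its values were seen, was at 0.88, 0.61 and 0.82 in sham and −0.94, −0.25 and −0.12 after protons. Dnajb11 and Calr, chaperones of the endoplasmic reticulum in the same list, were also named after their values were seen. Dnajb11 was higher by 1.58, 0.32 and 0.28, and Calr by 1.14, 0.38 and 0.22. The other such chaperones of the list were not counted. The list's median was −0.16, and −0.13, −0.20 and −0.08 by number. For X-rays minus sham, which uses the same sham libraries, it was −0.26, and for protons minus X-rays 0.09.

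Immediate early and AP-1 genes, which growth factors and stress induce within minutes, had a median of −0.39, and −0.52, −0.33 and −0.12 by number. Of 32 genes 30 have a row, and 3 were higher and 14 lower in all 3 numbers (10.0% and 46.7%). Dusp1, a phosphatase that switches off MAP kinases, was at 0.24, 0.21 and 0.44 in sham and −0.20, −0.09 and −0.05 after protons, and 0.00, −0.08 and −0.22 after X-rays. Its difference of −0.41 ± 0.11 was of like size in every number (−0.44, −0.30 and −0.49). Dusp4, a related phosphatase, was at 0.38, 0.30 and 0.12 in sham and −0.30, −0.20 and −0.04 after protons. Klf6, a zinc-finger transcription factor, was at 0.99, 0.44 and 0.34 in sham and −0.83, −0.19 and −0.11 after protons.

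Of 57 interferon-stimulated genes 29 have a row, and 2 were higher and 8 lower in all 3 numbers (6.9% and 27.6%), with a median of −0.16 and medians of −0.08, −0.31 and 0.05 by number. Stat2, which carries the interferon signal to the nucleus, was at 0.70, 0.40 and 0.30 in sham and −0.68, −0.34 and 0.04 after protons, a difference of −0.80 ± 0.25. Irf9, its partner, was at 0.00, 0.43 and 0.13 in sham and −0.04, −0.39 and 0.05 after protons, with overlap. Of 34 NF-kB targets 18 have a row, and 4 were higher and 3 lower in all 3 numbers. Tnf, the inflammatory cytokine, was higher by 0.30, 0.34 and 0.34, with the groups apart, while Relb, an NF-kB subunit, was lower in every number by a difference of −0.57 ± 0.22. Of 31 antigen presentation genes 17 have a row, with 2 higher and 5 lower in all 3 numbers (11.8% and 29.4%). The median of the fitted differences was −0.24, against 0.05 for all rows, and by number it was −0.29, −0.16 and 0.01. After trimmed-mean recentring 9 of the 17 were lower in all 3 numbers, and after quantile normalization also 9. Rfxank, needed to transcribe MHC class II genes, was at 0.23, 0.30 and 0.19 in sham and −0.21, −0.06 and −0.10 after protons. Tap2, the peptide transporter, differed by −0.93, 0.19 and −0.73.

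The 58 listed genes of oxidative phosphorylation are all encoded in the nucleus. Of these 17 were higher and 16 lower in all 3 numbers (29.3% and 27.6%), and the median was −0.00. Genes encoded in mitochondrial DNA were not in the list and were not counted as a set. Those that passed with library weights were higher, from 0.40 for mt-Co1 to 1.05 for mt-Nd4l in the main fit, where none passed. Trimmed-mean recentring gave 11 higher and 20 lower and quantile normalization 9 and 19, where all rows were near balance. Cycs, which encodes cytochrome c, was higher by 0.44 ± 0.16 and Cox8a, of the last complex of the chain, differed by −0.45 ± 0.13. Of the 31 NRF2, haem and glutathione genes 28 have a row, 9 higher and 8 lower in all 3 numbers. Gpx1, a glutathione peroxidase, was at −0.35, −0.27 and −0.13 in sham and 0.29, 0.26 and 0.06 after protons, and Gpx4, which reduces lipid peroxides, differed by −0.31 ± 0.11. Hmox1, the haem oxygenase, was at 0.45, 0.03 and 0.25 in sham and −0.54, −0.13 and 0.03 after protons. Of 39 genes of the lysosome and its proton pump 37 have a row, 9 higher and 12 lower. Atp6v0c, a membrane subunit of that pump, was higher by 1.37, 0.47 and 0.41.

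Lineage genes were read in the same way. Of the 4 T-cell and NK-cell markers with a row, 3 were higher and 1 lower in all 3 numbers (75.0% and 25.0%). The lower one had a difference of −0.15. Gata3, a transcription factor of T cells that is also expressed outside them, was at −0.63, −0.65 and −0.42 in sham and 0.09, 0.96 and 0.15 after protons, a difference of 0.97 ± 0.22. Tcf7, another transcription factor of T cells, was at −0.28, −0.44 and −0.22 in sham and 0.16, 0.17 and 0.26 after protons. The median of the 4 markers ran from −0.25 to −0.15 over the sham libraries and from 0.07 to 0.12 over the proton libraries, and Lck, a kinase of T cells, had overlapping groups. The other 22 genes of that list have no row in the table analysed here, and the part of such cells in any result was not tested. Of the 41 erythroid and megakaryocyte genes 10 were higher and 8 lower in all 3 numbers (24.4% and 19.5%), and the list's median lay between −0.05 and −0.02 in sham and between −0.03 and 0.02 after protons. Gata1 was at 0.07, 0.21 and 0.08 in sham and −0.08, −0.09 and −0.01 after protons. Car2, a carbonic anhydrase of red cells, was higher by 0.49 ± 0.14 and Gp5, a platelet glycoprotein, by 0.49 ± 0.17, and Rab27b, which serves granule secretion, differed by −0.63 ± 0.21. Of 24 myeloid markers the 4 with a row had 0 of either direction. Of the 4 stromal, endothelial and epithelial markers with a row 0 were higher and 1 lower, and of the 6 B-cell identity genes 1 was higher and 2 lower. Cd22 was at 0.13, 0.03 and 0.10 in sham and −0.12, −0.05 and 0.05 after protons, with overlap. Of 15 plasma-cell genes 6 have a row, 3 higher and 0 lower, among them Fkbp11, a prolyl isomerase of secretory cells, at 0.67 ± 0.25. In cultured cells a shift in the share of cells of one state and a shift in RNA per cell cannot be told apart in these values.

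**Figure D5:**
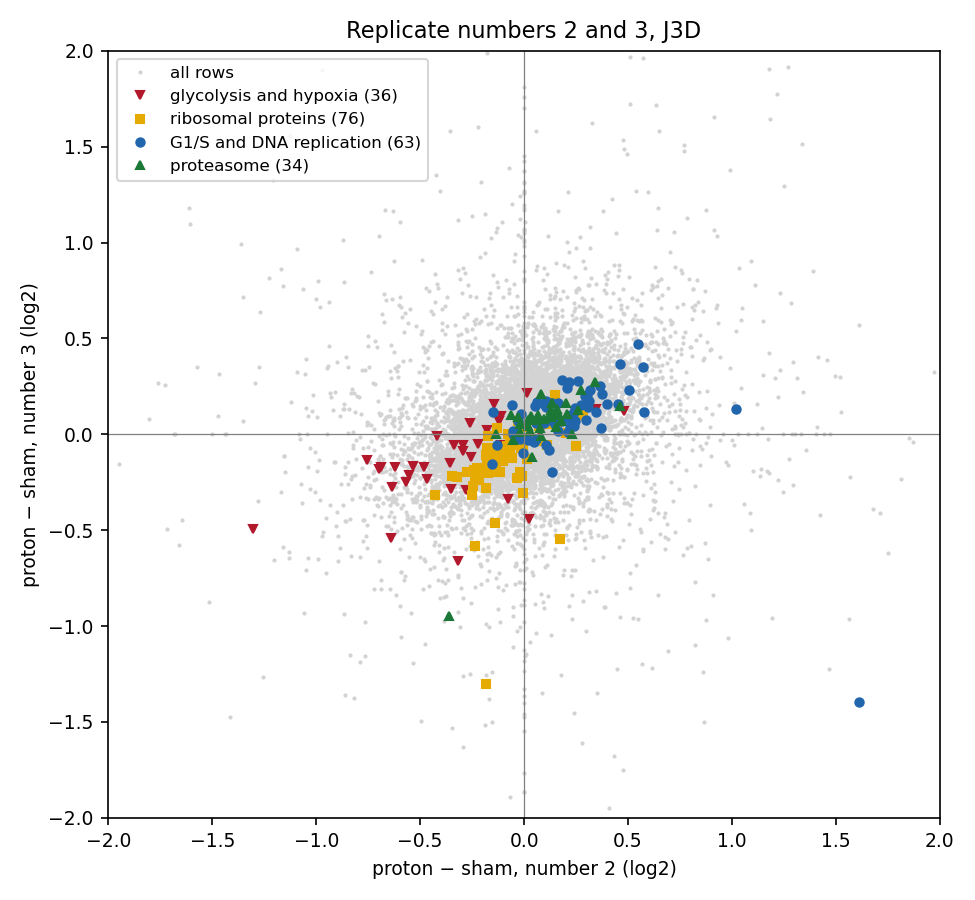
Proton minus sham difference (log2) of every row in replicate number 2 (horizontal) and number 3 (vertical), leaving out number 1, with 4 lists in colour; 59 rows lie outside the axes. Glycolysis and ribosomal protein genes gather at the lower left and replication and proteasome genes at the upper right.

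With the 3 libraries of number 1 left out, the medians of some lists were smaller and kept their sign. They were 0.14 for G1/S and replication, 0.11 for the MYC and ribosome biogenesis list, 0.09 for the proteasome, −0.13 for ribosomal proteins, −0.21 for glycolysis and hypoxia and −0.32 for immediate early genes. This did not hold for every list. The median of clustered histones went from −0.22 to −0.34. Medians near 0 changed sign in some lists, from 0.01 to −0.01 for mitosis and G2/M, from 0.03 to −0.02 for NRF2, haem and glutathione genes and from −0.03 to 0.01 for NF-kB targets.

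Protons were also set beside X-rays in the same fit. No row passed (limma, 0.0%), the lowest limma adjusted p was 0.147, and 1456 rows (11.9%) had an unadjusted p under 0.05. X-rays against sham gave 0 rows as well (limma, lowest adjusted p 0.441), with 765 rows (6.24%) under 0.05 unadjusted. These contrasts share libraries with protons against sham, so their values are set side by side without a comparison of the lists they give. Relative to X-rays the medians of the list differences were 0.34 for MYC and ribosome biogenesis, 0.23 for splicing, 0.19 for G1/S and replication, 0.18 for the proteasome, −0.26 for immediate early genes, −0.11 for ribosomal proteins and −0.02 for glycolysis and hypoxia. All of these contain the wide proton and X-ray libraries of number 1. The row with the smallest p, the predicted gene Gm13150, differed by −0.87, −0.96 and −0.92 between protons and X-rays in the 3 numbers. Cdkn1a, at 0.61, −0.04 and 0.23 in the X-ray libraries, differed by −0.51 (limma adjusted p 0.392), and its proton libraries overlapped them. Mdm2, at −0.17, −0.02 and −0.20 in the X-ray libraries, was higher after protons by 0.24 (limma adjusted p 0.392), with every proton library above them. Fam129b was at −0.16, −0.12 and −0.45 after X-rays and 0.43, 0.39 and 0.24 after protons, again with the groups apart.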

How the data were processed

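RNA-seq of the mouse line J3D was analysed from 1 normalized table of log2 values that the authors deposited. The log base is unstated and was taken to be 2; with another base all differences would scale alike. Per the submitters' processing notes the tools include TopHat2 and the builds hg19 and mm10, while counter, annotation, normalization and strand setting were not found in any label or header. The deposited log2 values were centred by the authors within each replicate number: their baseline is the average of 4 libraries, and 3 of these were analysed here, as the values themselves show. Where 2 of the 3 were tied at a number's lowest value, the fourth was implied at that value for 62.1 to 69.6% of the 140 to 181 rows, and below it for 0. The depth is unknown, and precision rests on the spread between libraries.

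Differences were fitted with limma 3.58.1 (R 4.3.3, statmod 1.5.0) on the 9 J3D libraries, with group means as coefficients, prior variance following a trend, robust moderation, no block and Benjamini-Hochberg adjustment over 12264 rows (threshold 0.05). The centring takes out a mean per number, which this fit does not count. The fit therefore has 6 residual degrees of freedom where the block leaves 4, and its p-values are too small to that extent. The SE and intervals printed for single genes come from the same fit, so they are too narrow for the same reason. With the block, the unadjusted limma p rose from 0.0106 to 0.0154 for Myc and from 0.00471 to 0.0148 for Ccng1. For Bbc3 it rose from 0.027 to 0.0506, which is above 0.05. The scripts were tested on simulated data in which all libraries of a gene had the same spread, unlike number 1 here. The rate of small p-values among unchanged genes was held to a limit there only for the fit with the block. Tables and plots used Python 3.11.15, numpy 2.4.6, pandas 2.3.3 and matplotlib 3.10.9. Of all rows 58 share a symbol with another row, 74 have none and 268 have libraries tied at the lowest value of a number. No 2 libraries were identical.

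The 29 gene lists and the named genes were chosen with earlier results of these data known. Since no row passed, the named genes are, by rule, the 10 rows with the smallest p in each direction, predicted names left out, the 4 smallest p of each list, and 20 genes taken whatever their values. Pmaip1, Fas, Cd79a and Pax5 have no row. Some named items are not reported here. Alternatives covered the block, library weights, the libraries fitted, scaling, variance moderation, rows tied at the lowest value and leaving out libraries.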

Additional observations from a re-analysis of the deposited data

How the results depend on the processing

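Protons against sham gave 0 rows past the threshold as fitted, with the replicate block, with the sham and proton libraries only, with both of these together, and under each scaling, variance model and row filter tried. Library weights gave 312 rows (203 higher, 109 lower), and weights with the replicate block 1, Hist1h2ag at −0.95 with a limma adjusted p of 0.0394, although the weights had not fully converged there. Leaving out libraries gave 0 to 1 rows: Rpl30-ps8 passed without proton library 1 (limma adjusted p 0.00572) and without proton library 3 (0.0462). The comparison J3D protons versus X-rays gave 81 rows with library weights and 0 to 1 when libraries were left out, Gm13150 without sham library 3 and Gm14888, a pseudogene, without X-ray library 3. Fits of the sham and proton libraries only hold no X-ray library and gave no value for that comparison. Of the 862 rows in the 29 lists 19 passed with library weights (11 higher, 8 lower), no larger a share than the 312 of 12264 rows overall (2.54%), and 1 with weights and the replicate block. Library weights were lowest for X-ray 1 (0.275), X-ray 2 (0.402) and proton 1 (0.466). The replicate numbers are not shown to pair the samples, since the correlation of same-numbered deviations was −0.73 to 0.31 and the centring biases it; without weights the replicate block moved no call (0 and 0) but left 1134 rows under an unadjusted p of 0.05 against 2425, and with weights it left 1 call of 312. Scaling to an equal interquartile range left 3547 rows higher and 2239 lower in all 3 numbers, and trimmed-mean recentring 2935 and 2938. Of 2857 alternative values for 143 named genes, 2788 kept their direction and side of the threshold, 38 in 35 genes passed it, and 31 in 8 genes, all with small differences, turned their sign. Many of these values could not turn their sign. The unweighted block, the fits of sham and proton libraries only, the variance model and the row filter leave the difference of group means unchanged. Leaving out an X-ray library does so too, and in these fits only the side of the threshold could move. Bax was at −0.0398 with the replicate block and weights, −0.0299 trimmed, −0.0694 by quantiles, −0.0266 at equal range, −0.0671 with weights and −0.109 to 0.0651 with libraries left out. Ccnb1 was at −0.00157, −0.0291, −0.0458, −0.000276 and −0.0223 in that order, and −0.0403 to 0.0588. Plk1 was at −0.0621 with the block and weights, −0.0206 by quantiles, −0.0861 with weights and −0.146 to 0.249. Mrc1 was at −0.00812 and Tek at −0.0202 after trimmed-mean recentring, Tek at −0.00659 by quantiles and Sec11c at 0.00549 with weights. With libraries left out Mrc1 ran from −0.0379 to 0.192, Tek from −0.00381 to 0.0529, Cd68 from −0.581 to 0.059, S1pr2 from −0.203 to 0.0226 and Sec11c from −0.185 to 0.0291. The cause of these shifts was not tested. The unknown depth limits all low values.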
